A study of Rattus norvegicus with 105 samples.

Results

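The Cyp2 genes outside the Cyp2b subfamily were followed in primary rat hepatocytes exposed to small nitroalkanes. They were defined by name, as every probe of the panel whose gene symbol starts with Cyp2 and a subfamily letter other than b. The choice was made with earlier results of these data known. This gave 30 probes for 25 genes, of 22253 probes for 20946 genes in all. A probe was kept where it reached 1 CPM (CPM is a probe's count scaled to the total of its library) in at least 3 libraries, which left 21 probes for 20 genes and dropped 9 probes. The cells came from female Sprague-Dawley rats, all from 1 commercial lot, and were grown on collagen in 96-well plates and exposed for 24 h. Set 1 (72 libraries, 24 groups) held nitromethane (NM), nitroethane (NE), plain medium and DMSO, with 4 reference compounds: 50 µM benzo[a]pyrene, 10 or 20 µM CITCO, 20 or 40 µM rifampin, and 50 µM WY-14643. Set 2 (33 libraries, 11 groups) held 1-nitropropane (1NP), medium, DMSO and WY-14643, titled 50 µM but with 100 in its library names. Each nitroalkane was given at 8 concentrations in steps of about 3-fold, from 0.003 mM up to 10 mM. The titles of these samples say µM and the protocol mM, and DMSO is titled 0.5 but is 0.2% in the protocol. Whether DMSO was also in the nitroalkane wells is unknown from the labels. Every group had n = 3 libraries, and because the lot is shared the p-values measure the spread between wells, not between animals.

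Enzymes of the Cyp2 family are membrane-bound heme proteins of the endoplasmic reticulum that insert an oxygen atom into drugs, solvents, steroids, retinoids and fatty acids, using electrons from the reductase Por and cytochrome b5. In rat liver many of them are set by sex hormones and growth hormone pulses, others answer to xenobiotic receptors such as CAR, PXR and AhR, and their transcripts are known to decline when hepatocytes are taken into culture. Cyp2e1 oxidises ethanol and small solvents, Cyp2c11 is the main P450 of the male rat liver, Cyp2c6 is a phenobarbital-inducible enzyme, Cyp2c22 hydroxylates retinoic acid, Cyp2j4 acts on arachidonic acid and retinal, Cyp2f4 is best known from the lung for activating naphthalene, Cyp2d4 is best known from the brain, Cyp2r1 hydroxylates vitamin D and Cyp2u1 hydroxylates long-chain fatty acids.

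Promoters of the genes with the clearest changes are shown because Cyp2f4 and Cyp2t1, which stand next to each other in the RefSeq gene order of assembly GRCr8, moved together under benzo[a]pyrene and apart under NE, and because Cyp2c22 passed against both controls at 3 and 10 mM NE. The sequences are from RefSeq (GRCr8), each 300 bases long, from 250 before to 50 after the start of transcription, written 5′ to 3′ on the strand of the gene. Capitals mark matches on either strand to GCGTG, the core of AhR response elements, or to AGGTCA, the hexamer bound by nuclear receptors (TGACCT on the other strand). The Cyp2f4 window is chr1:91543518-91543817 on the plus strand, that of Cyp2t1 chr1:91575260-91575559 on the plus strand, and that of Cyp2c22 chr1:248980718-248981017 on the minus strand.
Cyp2f4: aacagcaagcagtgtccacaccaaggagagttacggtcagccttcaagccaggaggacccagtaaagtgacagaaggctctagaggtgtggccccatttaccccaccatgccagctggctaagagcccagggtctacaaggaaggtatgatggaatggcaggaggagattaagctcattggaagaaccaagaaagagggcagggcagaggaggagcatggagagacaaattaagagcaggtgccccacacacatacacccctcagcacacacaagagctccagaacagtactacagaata
Cyp2t1: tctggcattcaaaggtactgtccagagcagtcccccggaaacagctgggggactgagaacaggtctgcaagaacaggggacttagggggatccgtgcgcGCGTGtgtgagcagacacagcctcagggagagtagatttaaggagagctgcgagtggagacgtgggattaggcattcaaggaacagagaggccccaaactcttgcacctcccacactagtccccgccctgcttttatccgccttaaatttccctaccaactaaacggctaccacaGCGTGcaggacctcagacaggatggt
Cyp2c22: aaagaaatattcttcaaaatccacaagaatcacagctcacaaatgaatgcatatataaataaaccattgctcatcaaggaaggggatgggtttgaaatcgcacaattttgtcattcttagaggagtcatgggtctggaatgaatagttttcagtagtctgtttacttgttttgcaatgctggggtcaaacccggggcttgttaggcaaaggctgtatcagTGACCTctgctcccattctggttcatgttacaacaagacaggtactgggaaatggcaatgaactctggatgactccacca
The Cyp2t1 window held GCGTG at 2 places, at offsets -151 and 24 from the start, the Cyp2c22 window held AGGTCA on its minus strand at offset -30, and the Cyp2f4 window held neither. Over all 33469 promoters of the table, 29.7% held GCGTG and 16.2% held AGGTCA. Among the Cyp2 genes outside Cyp2b, 23 had a promoter in the table (25 promoters), of which 4 genes had a GCGTG match and 7 an AGGTCA match. The antioxidant response element TGACNNNGC, was found for Cyp2s1 alone of these genes and in 12.1% of all promoters. A match is only a run of letters, and the probes themselves were not placed on the genome.

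The libraries held 5475419 to 11122665 counts each, with a median of 8680678, so a count of 3 corresponded to 0.27 to 0.548 CPM. Among all libraries 6 stood apart from the rest of their groups, including NE at 10 mM replicate 2, with counts in 21627 probes against a median of 13792, and 1NP at 10 mM replicate 3. The other 4 were NE at 0.01 mM replicate 3, NM at 1 mM replicate 1, NM at 3 mM replicate 1 and NM at 10 mM replicate 3. Of 10 hepatocyte markers 9 were on the panel and none had a median of 0, with a summed level of 14300 to 15600 CPM in set 1 DMSO, 8370 to 10600 in set 1 medium and 6230 to 8480 under NE at 10 mM. All 5 endothelial and all 3 measured lymphocyte markers had a median of 0, as did 5 of 6 stellate markers. The stellate marker that was detected, Reln, had a median of 344 CPM and fell under NE at 10 mM against both controls (-0.68 against DMSO and -0.43 against medium). Of the Kupffer cell markers, Csf1r, Cd68 and Cd163 had medians of 2.35, 1.32 and 0.227 CPM and Adgre1, Clec4f and Marco of 0. The list summed to a mean of 3.76 CPM in DMSO (3.34 to 4.38) and 2.28 in medium (1.97 to 2.62). Under NE at 10 mM the mean was 7.21, but the lowest library was at 1.55, below every library of both controls. This mean was carried by the highest library of the group, so it does not show a rise across the group. Cholangiocyte markers (Krt19, Epcam and Sox9, with Krt7 at 0) summed to 541 to 621 CPM in DMSO, 627 to 721 in medium and 219 to 278 under NE at 10 mM, and all 3 fell there against both controls. Whether cells other than hepatocytes were present in these wells was not tested, and single detected markers do not show it. Fewer cells of a type and less RNA per cell cannot be told apart, and the part of these markers in the Cyp2 values was not tested. The 3 libraries of a group came from 3 neighbouring wells of 1 plate row, so group and well position cannot be told apart.

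The kept Cyp2 probes differed widely in counts. The whole of the kept Cyp2 probes summed to a mean of 180 CPM in medium and 232 CPM in DMSO of set 1, and Cyp2c22, Cyp2j4 and Cyp2t1 made 60.0 to 76.5% of that sum across groups. Cyp2c11 had a median of 3.07 CPM over all libraries and Cyp2e1 one of 2.32. Cyp2c7 and Cyp2c13, female- and male-typical enzymes of rat liver, had medians of 0.199 and 0.113 CPM. Counts also depend on how well a probe works, so these shares and medians do not order the genes by transcript level.

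The probes dropped were those of Cyp2c12, a female-specific enzyme, Cyp2c23, Cyp2g1, Cyp2j16 and Cyp2w1, and the further probes of Cyp2a3 and Cyp2d1. All dropped probes had their only libraries at 1 CPM among 1 or 2 libraries, and 8 of the 9 were highest in NE at 10 mM replicate 2, the library with counts in most probes. Just inside the rule stood Cyp2a3, Cyp2c13 and Cyp2c7 with 3 libraries each, and without that NE library 18 probes would have been kept. Of the 21 kept probes 16, for 15 genes, had enough counts for a test in at least 1 of 84 comparisons and 14 in every one. Cyp2a3, Cyp2ab1, Cyp2c13, Cyp2c7 and Cyp2s1 were never tested. Cyp2c7 reached 7.46 CPM in that NE library and Cyp2s1 had its highest value of 2.11 CPM in 1NP at 10 mM replicate 3.

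**Figure D1:**
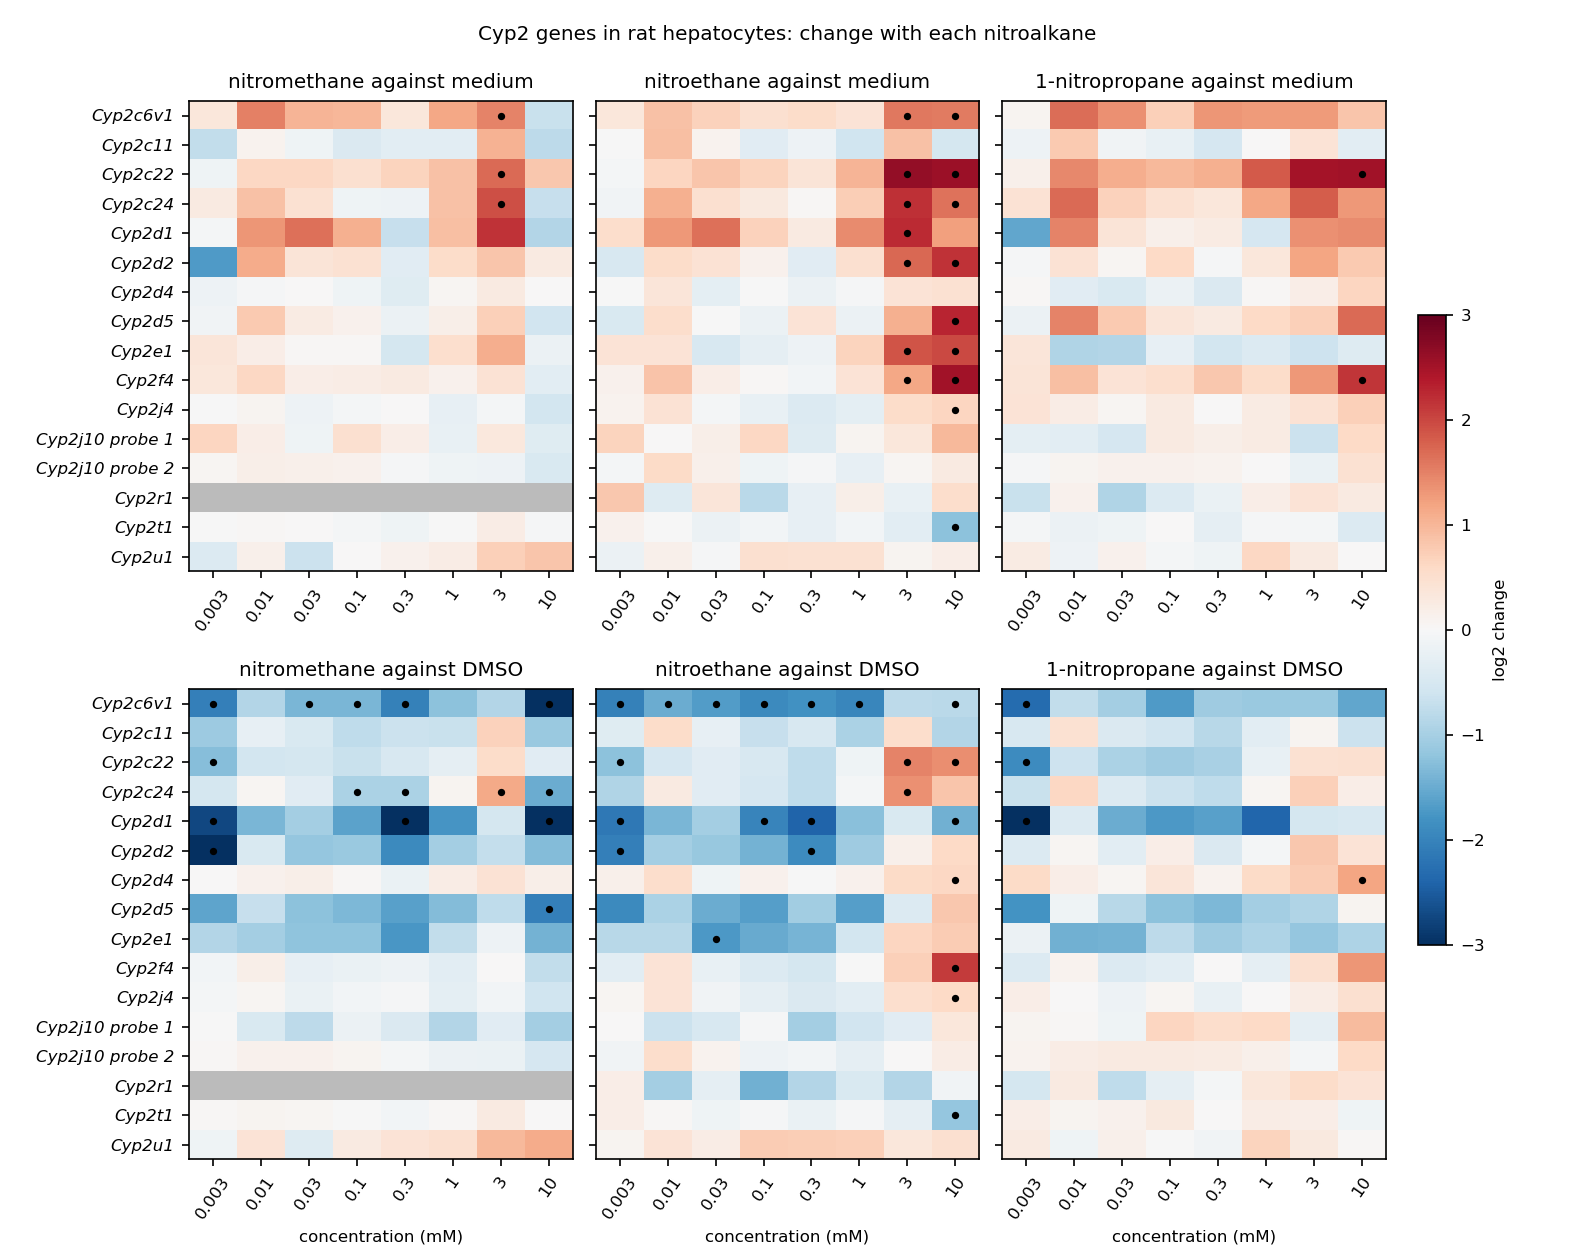
Log2 change (colour) of each tested Cyp2 probe (y axis) at each concentration (x axis, mM) of the 3 nitroalkanes, against medium (upper panels) and DMSO (lower panels) of the same set; dots mark an adjusted p under 0.05 by edgeR, and grey marks probes not tested. Against medium NE at 3 and 10 mM carry 7 and 9 dots and its 6 lower concentrations none, while against DMSO the dots at those lower concentrations are all on lower values.

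The 2 controls were compared first because they set what every other change means. Cyp2c6v1, Cyp2c22 and Cyp2d1 were lower in medium than in DMSO in both sets. Cyp2c6v1 measured 3.13, 4.76 and 2.39 CPM in the set 1 medium libraries and 20.2, 17.0 and 14.2 CPM in DMSO. In set 2 it was 2.37, 1.59 and 1.60 CPM in medium and 9.20, 6.93 and 10.9 CPM in DMSO. The groups did not overlap in either set, and the difference was -2.37 ± 0.33 (log2 ± SE, adjusted p = 3.04e-05, edgeR's quasi-likelihood test with Benjamini-Hochberg adjustment over all probes, as for all adjusted p-values here) in set 1 and -2.37 ± 0.31 (adjusted p = 2.79e-05) in set 2.

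Cyp2c22 was at 26.2, 31.4 and 17.2 CPM in set 1 medium and 64.1, 53.7 and 42.7 CPM in DMSO, a difference of -1.15 ± 0.27 (adjusted p = 0.00976) whose call was lost without DMSO replicate 1 or medium replicate 3. In set 2 it was at 20.7, 14.1 and 23.6 CPM in medium and 74.1, 63.5 and 83.0 CPM in DMSO (-2.02 ± 0.19, adjusted p = 9.87e-07). Cyp2d1, a broad drug-metabolising enzyme, differed by -2.68 ± 0.59 and -1.85 ± 0.54 at levels of at most 4.49 CPM. In all, 3 of 16 tested Cyp2 probes were lower in medium in set 1, where 7.06% of all probes differed, and 5 of 15 in set 2, where 24.0% did, with Cyp2c24 (-1.07) and Cyp2d5 (-1.58) added. None was higher. The set 1 count was 5 without medium replicate 2, and the set 2 count 3 without DMSO replicate 4 or medium replicate 4 or 5 and 2 without DMSO replicate 6. A direct test of the medium minus DMSO difference between sets called 0 of 15 (1 at an unadjusted p under 0.05 in edgeR, 0 with DESeq2; 1.03% of all probes were called). The hepatocyte markers moved the same way, with 6 of 9 lower in medium in both sets, and their part in these differences was not tested.

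**Figure D2:**
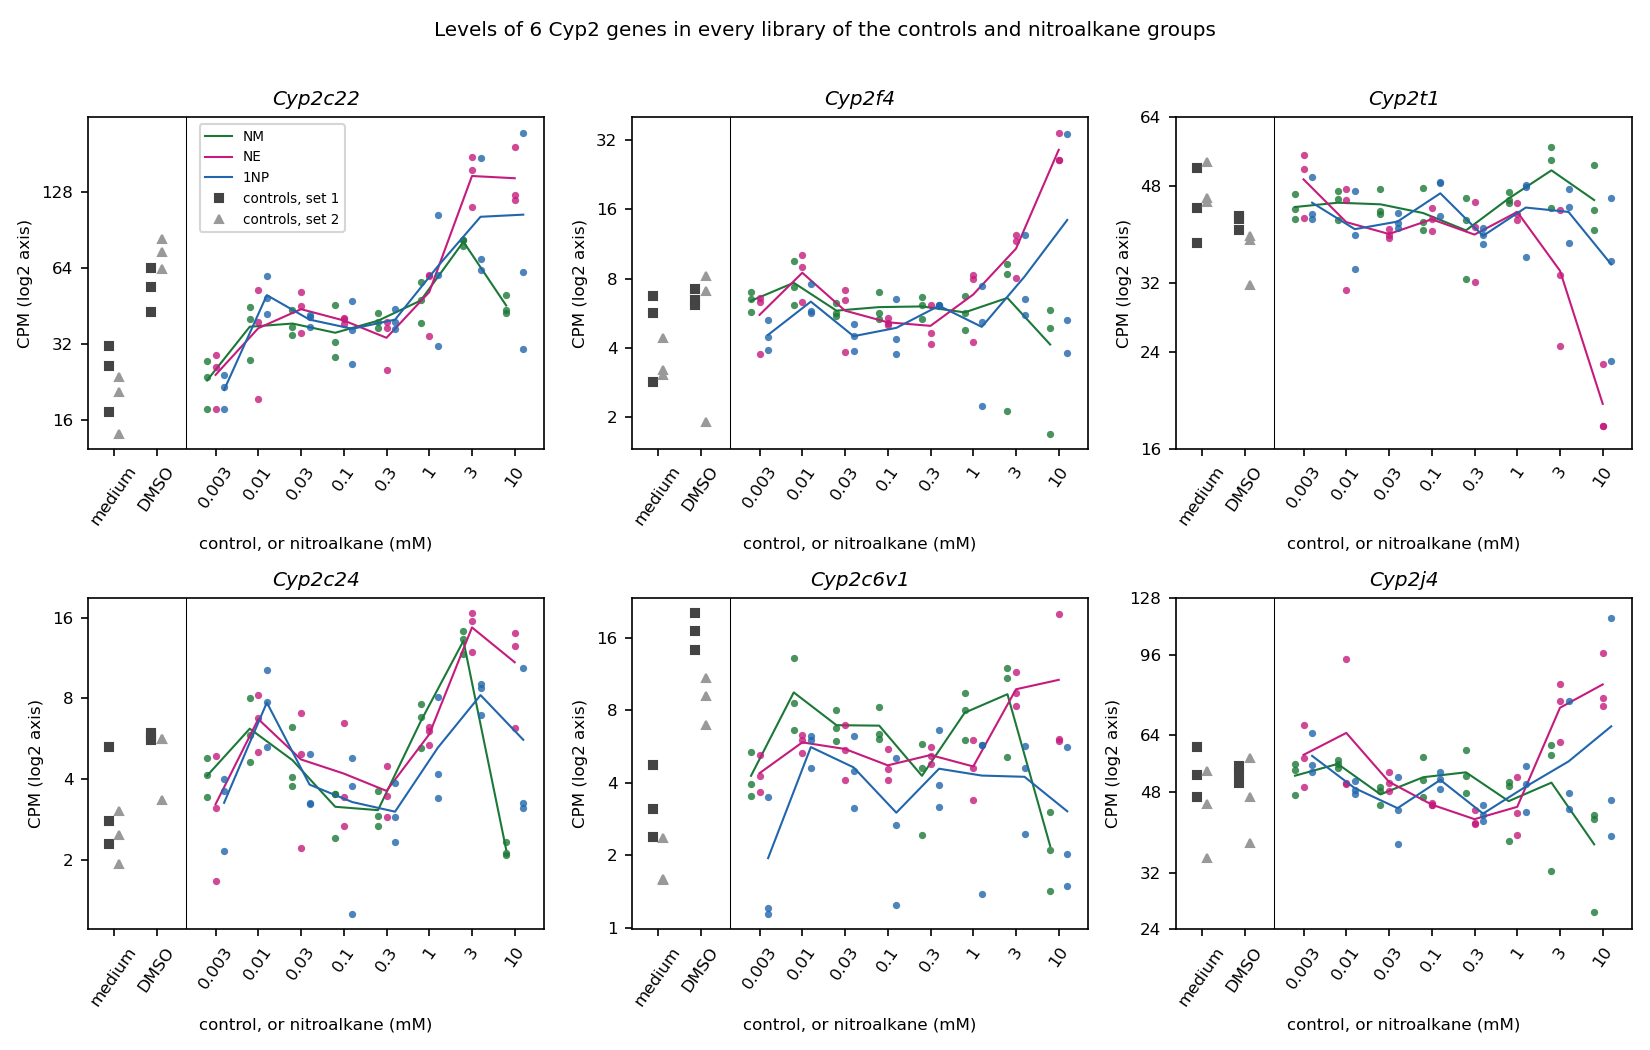
Level (CPM, log2 axis) of 6 Cyp2 genes in every library of the controls and of the nitroalkane groups; points are libraries, lines join group means over concentration (mM). Cyp2c22 and Cyp2f4 are higher under NE at 10 mM than in both controls, Cyp2t1 lies at 17.6 to 22.8 CPM there, and at 10 mM NM lies below NE for Cyp2c24.

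NE gave the most calls of the 3 nitroalkanes, and those against medium were at 3 and 10 mM. Cyp2c22 was between 17.6 and 52.3 CPM (median 38.3) in the 15 libraries at 0.3 mM and below. At 1 mM it measured 60.0, 59.4 and 34.4 CPM, at 3 mM 176, 156 and 112 CPM and at 10 mM 193, 124 and 119 CPM. Each library at 3 and 10 mM was above each library of both controls. The rise at 10 mM was 2.56 ± 0.31 against medium (5.90-fold, adjusted p = 3.33e-07) and 1.40 ± 0.29 against DMSO (2.64-fold, adjusted p = 0.00052), and that at 3 mM was 2.64 ± 0.31 and 1.48 ± 0.29.

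Cyp2f4 was higher at 10 mM NE than at any lower NE concentration. It lay between 3.77 and 10.1 CPM (median 6.13) at 0.3 mM and below, at 12.4, 11.7 and 8.07 CPM at 3 mM and at 26.4, 26.2 and 34.6 CPM at 10 mM. Medium held 6.73, 5.64 and 2.85 CPM and DMSO 7.22, 6.11 and 6.47 CPM, so the 10 mM libraries stood apart from both controls. The rise at 10 mM was 2.53 ± 0.32 against medium (adjusted p = 6.34e-07) and 2.09 ± 0.28 against DMSO (4.26-fold, adjusted p = 2.77e-06). At 3 mM it was 1.16 ± 0.32 against medium (adjusted p = 0.0175) and 0.72 against DMSO, where it did not pass. The 3 mM call was lost without NE replicate 1 or 2 or medium replicate 3, at values of 0.87 to 1.42 over all alternatives.

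Cyp2t1, the chromosomal neighbour of Cyp2f4, went the other way. It measured 37.8, 51.7 and 43.8 CPM in medium, 40.0, 41.9 and 42.4 CPM in DMSO, 24.6, 33.1 and 43.5 CPM under NE at 3 mM and 17.6, 22.8 and 17.6 CPM at 10 mM. The 10 mM libraries were below all others of these groups. The fall was -1.22 ± 0.17 against medium (adjusted p = 3.19e-06) and -1.17 ± 0.16 against DMSO (adjusted p = 3.94e-06). The values of Cyp2c22, Cyp2f4 and Cyp2t1 at 10 mM passed in all 14 alternative analyses against each control, including those without NE replicate 2.

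Cyp2c24 measured 15.5, 11.9 and 16.6 CPM under NE at 3 mM and 12.5, 14.0 and 6.21 CPM at 10 mM, against 2.78, 5.26 and 2.28 CPM in medium and 5.92, 5.76 and 5.58 CPM in DMSO. It rose by 2.18 ± 0.40 at 3 mM and 1.64 ± 0.40 at 10 mM against medium. Against DMSO it rose at 3 mM (1.37 ± 0.36, adjusted p = 0.0201), and 10 mM gave 0.84 ± 0.36 (adjusted p = 0.0804). The DMSO call at 3 mM was lost without any 1 DMSO library or NE replicate 3 (1.27 to 1.50 over the alternatives). Cyp2j4 was at 74.2, 77.2 and 96.9 CPM at 10 mM, above the 46.8 to 60.3 CPM of both controls, and its rise was small: 0.64 ± 0.23 against medium (adjusted p = 0.0295) and 0.60 ± 0.22 against DMSO (adjusted p = 0.0415). These calls of Cyp2j4 were lost without NE replicate 1 or 3, medium replicate 1 or 3, or any 1 DMSO library, at values from 0.44 to 0.78.

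For Cyp2c6v1 the direction depended on the control. Under NE at 10 mM it was at 6.07, 20.1 and 5.99 CPM, the middle value being replicate 2, the library that stood apart. This was higher than medium by 1.57 ± 0.34 (adjusted p = 0.000655), or by 0.90 without NE replicate 2 (adjusted p = 0.0235), and differed from DMSO by -0.81 ± 0.29 (adjusted p = 0.0396), a call lost without NE replicate 1 or 3 or DMSO replicate 1 or 2 (-1.48 to -0.55 over the alternatives). Over the nitroalkanes Cyp2c6v1 was lower than DMSO in 13 of 24 comparisons and higher than medium in 3, and Cyp2d1 was lower than DMSO in 8 of 24. Cyp2d4 rose against DMSO at 10 mM (0.61 ± 0.20, adjusted p = 0.0252) and was at 0.45 against medium (adjusted p = 0.0914). Its call was lost without NE replicate 2 or DMSO replicate 1 or 3 (0.49 to 0.69).

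Among the genes at lower levels Cyp2e1, chosen for mention after its values were seen, measured 6.19, 12.1 and 8.99 CPM under NE at 10 mM, 9.24, 6.49 and 7.95 CPM at 3 mM, 0.812, 4.13 and 1.82 CPM in medium and 6.16, 3.69 and 5.46 CPM in DMSO. It rose against medium by 1.99 ± 0.49 at 10 mM (adjusted p = 0.00232) and 1.89 ± 0.49 at 3 mM (adjusted p = 0.0106), the latter lost without medium replicate 1 or 3 (1.49 to 2.65). Against DMSO at 10 mM it was at 0.75 (adjusted p = 0.169), with each NE library above each DMSO library by little, the nearest at 6.19 and 6.16 CPM. Cyp2d2 (2.16) and Cyp2d5 (2.28) also rose against medium at 10 mM, from 1.04 ± 0.534 to 4.68 ± 1.19 CPM (SD) and from 1.42 ± 0.494 to 7.10 ± 3.01 CPM. Both genes lie in the same chromosomal cluster as Cyp2d1. Counts between similar copies, such as Cyp2d1 and Cyp2d5, are uncertain.

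In all, NE at 10 mM called 9 of 16 tested Cyp2 probes against medium, 8 higher and 1 lower, where 34.0% of all probes were called, and the median change of the 16 was 1.10 against 0.03 over all probes. At 3 mM it called 7 of 16, all higher, against 11.5% of all probes, with a median of 0.97 against -0.01, and this count was 4 without NE replicate 1 or medium replicate 1 and 3 without medium replicate 3. At the 6 concentrations from 0.003 up to 1 mM, in rising order, edgeR called 0 against medium (0, 0.0162, 0, 0, 0.0324 and 0.219% of all probes), with 0, 5, 2, 1, 0 and 1 at an unadjusted p under 0.05 and 0 by DESeq2 at each. Against DMSO the counts from the lowest concentration to the highest were 4, 1, 2, 2, 3, 1, 2 and 7, with 2.97, 2.68, 2.68, 3.44, 5.29, 2.81, 6.08 and 28.9% of all probes called. Up to 1 mM all of these were lower than DMSO. At 3 mM both were higher, and at 10 mM 4 were higher (Cyp2c22, Cyp2f4, Cyp2j4, Cyp2d4) and 3 lower (Cyp2t1, Cyp2c6v1, Cyp2d1). This count of 7 was 3 without DMSO replicate 1 and 4 without DMSO replicate 2. The trend over the 8 NE concentrations, which uses no control, called 8 of 16, 7 rising and Cyp2t1 falling, against 26.1% of all probes. Concentration and plate row rose together, so they cannot be told apart in this trend. Cyp2c22 rose by 0.36 ± 0.05 per concentration step (adjusted p = 5.81e-06), Cyp2e1 by 0.27 ± 0.06 and Cyp2f4 by 0.26 ± 0.05, and Cyp2t1 changed by -0.12 ± 0.03. The trend called 5 without the second replicate of each concentration, and that of Cyp2t1 was lost without the first.

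Under NM Cyp2c24 took a different course. NM at 3 mM, NE at 3 mM and CITCO at 20 µM all lay in plate row G of set 1, so compound and row cannot be told apart. Hepatocyte markers summed to 14300 to 15300 CPM under NM at 3 mM and 9210 to 9700 CPM at 10 mM, and their part was not tested. Cyp2c24 measured 14.3, 11.7 and 13.3 CPM at 3 mM NM and 2.33, 2.12 and 2.08 CPM at 10 mM. The 3 mM values lay above and the 10 mM values below every DMSO library. Cyp2c24 rose at 3 mM against medium (1.94 ± 0.29, adjusted p = 0.000355) and DMSO (1.14 ± 0.23, adjusted p = 0.0214) and fell at 10 mM against DMSO (-1.49 ± 0.26, adjusted p = 0.000566). Against medium the 10 mM value was -0.70 ± 0.31 (adjusted p = 0.304), and the libraries overlapped those of medium. The DMSO call at 3 mM was lost without any 1 DMSO library or NM replicate 1 or 3 (1.10 to 1.19 over the alternatives).

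Cyp2c22 was also higher at 3 mM than at 10 mM NM, with 82.9, 77.8 and 82.8 CPM at 3 mM and 50.0, 43.7 and 42.4 CPM at 10 mM. It rose at 3 mM against medium (1.71 ± 0.23, adjusted p = 0.000117), while the change was 0.56 against DMSO (adjusted p = 0.24). At 10 mM it was at 0.82 against medium (adjusted p = 0.11) and -0.34 against DMSO. Cyp2c6v1 fell to 2.11, 3.02 and 1.43 CPM at 10 mM (-3.05 ± 0.38 against DMSO, adjusted p = 1.57e-05; -0.67 against medium, adjusted p = 0.415), values that overlapped those of medium. Cyp2d1 (-3.55) and Cyp2d5 (-2.05, lost without DMSO replicate 1 or 2 or NM replicate 2 or 3) also fell against DMSO at 10 mM. Cyp2f4 (4.88, 5.81 and 1.69 CPM) and Cyp2t1 (40.0, 43.5 and 52.5 CPM) did not pass against either control at 10 mM.

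Against medium NM called 3 of 15 at 3 mM, all higher (2.32% of all probes), with Cyp2c6v1 (1.48, lost without NM replicate 2 or 3 or medium replicate 1 or 3) as the remaining call. In a fit of only the libraries compared, 0 passed at 3 mM. It called 0 by edgeR at 10 mM (0.662% of all probes; 5 at an unadjusted p under 0.05, 1 by DESeq2) and 0 at the 6 lower concentrations, where 0% of all probes were called up to 0.3 mM and 0.00818% at 1 mM (1, 3, 3, 2, 1 and 3 at an unadjusted p under 0.05, 0 by DESeq2). Against DMSO the counts from 0.003 to 10 mM were 4, 0, 1, 2, 3, 0, 1 and 4 of 15, with 3.88, 1.01, 1.77, 2.03, 3.14, 2.05, 0.679 and 7.19% of all probes. The 0 at 0.01 mM stood beside 3 at an unadjusted p under 0.05 and 0 by DESeq2, and the 0 at 1 mM beside 3 and 1. Only Cyp2c24 at 3 mM was higher than DMSO among these calls. The NM trend called 3 of 15 against 9.88% of all probes: Cyp2c22 (0.17 ± 0.03 per step), Cyp2u1 (0.17 ± 0.04) and 1 of the probes of Cyp2j10 (-0.07 ± 0.02). Without the libraries that stood apart 1 was called, without the first or the second replicate of each concentration 1 and without the third 0.

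1NP gave uneven libraries at the top concentrations. Cyp2c22 measured 31.4, 59.8 and 104 CPM at 1 mM, 63.0, 69.1 and 175 CPM at 3 mM and 30.6, 61.6 and 220 CPM at 10 mM in replicates 1, 2 and 3, against 20.7, 14.1 and 23.6 CPM in its medium. Replicate 3, which lay in 1 plate column throughout, was the highest at each of these concentrations. Cyp2f4 measured 3.78, 5.29 and 34.0 CPM at 10 mM, against 3.05, 4.43 and 3.19 CPM in medium. The rises at 10 mM against medium, 2.53 ± 0.58 for Cyp2c22 (adjusted p = 0.017) and 2.14 ± 0.57 for Cyp2f4 (adjusted p = 0.0254), were lost without replicate 3.

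Without the libraries that stood apart, 1NP replicate 3 among them, Cyp2c22 was at 1.28 ± 0.47 (adjusted p = 0.185) and Cyp2f4 at 0.39 ± 0.40 (adjusted p = 0.661). With plate column 3 left out at all 1NP concentrations, an alternative added after the data were seen, Cyp2c22 passed (1.28 ± 0.31, adjusted p = 0.0301) and Cyp2f4 did not (0.39). At 3 mM Cyp2c22 was at 2.49 ± 0.58 against medium (adjusted p = 0.069) with all libraries and passed with column 3 left out (1.82 ± 0.30, adjusted p = 0.0112), and Cyp2c24 likewise went from 1.82 (adjusted p = 0.0802) to 1.74 (adjusted p = 0.0199).

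Cyp2d4 was the only Cyp2 probe called against DMSO at 10 mM 1NP, with 13.8, 22.5 and 40.7 CPM (1.19 ± 0.32, adjusted p = 0.0456), and this call was lost without 1NP replicate 3 or any 1 DMSO library. Without replicate 3 the calls were other genes, Cyp2c6v1 (-2.41 ± 0.59, adjusted p = 0.0146) and Cyp2e1 (-2.24 ± 0.63, adjusted p = 0.0337), both lower than DMSO. Against medium 1NP called 2 of 16 at 10 mM (10.2% of all probes). This count was 0 without 1NP replicate 3 or medium replicate 5, 1 without medium replicate 4 or 6, 6 without 1NP replicate 1 and 5 without 1NP replicate 2. It called 0 at the 7 lower concentrations, where 0.00824, 0.190, 0, 0.0165, 0, 0.0660 and 0.223% of all probes were called, with 0, 4, 1, 0, 1, 4 and 4 Cyp2 probes at an unadjusted p under 0.05 in edgeR and 0, 1, 0, 0, 0, 0 and 2 by DESeq2. Against DMSO the counts were 3 at 0.003 mM (Cyp2c22, Cyp2c6v1 and Cyp2d1, all lower; 20.0% of all probes), 1 at 10 mM (2.17%) and 0 between, with 0.405, 1.02, 5.09, 1.02, 1.49 and 0.570% of all probes called from 0.01 to 3 mM. Beside these 0 counts stood 1, 1, 2, 2, 3 and 2 at an unadjusted p under 0.05 in edgeR, and 0, 0, 1, 0, 0 and 0 by DESeq2. The 1NP trend called Cyp2c22 alone (0.28 ± 0.06 per step, adjusted p = 0.0107; 4.77% of all probes), and with column 3 left out it was 0.12 (adjusted p = 0.251).

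The 3 nitroalkanes carry 1 nitro group on chains of rising length, and their responses were compared in pairs at 1, 3 and 10 mM. NE and NM shared set 1 and its controls and were compared directly. 1NP was compared through its change from its own medium or DMSO. This made 15 comparisons, each adjusted over all probes. NE at 10 mM was higher than NM for Cyp2f4 (2.85, 95% interval 1.98 to 3.72, adjusted p = 0.00567), which was at 26.2 to 34.6 CPM with NE and 1.69 to 5.81 CPM with NM. Cyp2c24 (2.35, interval 1.57 to 3.12), Cyp2c6v1 (2.26, 1.20 to 3.33), Cyp2e1 (2.17, 1.35 to 2.99), Cyp2c22 (1.74, 1.21 to 2.27) and Cyp2j4 (1.21, 0.68 to 1.74) were also higher with NE, as was Cyp2d5 (2.87). Cyp2t1 was lower (-1.18, -1.60 to -0.77, adjusted p = 0.0104). NE and NM thus differed in 8 of 14 tested Cyp2 probes at 10 mM, against 11.7% of all probes. The count was 3, 5 and 4 without NE replicates 1, 2 and 3 and 5 without NM replicate 2, and Cyp2c22 and Cyp2f4 passed in each of these. Cyp2c6v1 was at 1.33 without the libraries that stood apart, where it passed, and its call was lost without any 1 NE library or NM replicate 1 or 2. The libraries of the compounds did not overlap for these 8 genes, but the genes were picked by a test on the same libraries. The share of all probes without overlap was not computed, so this adds nothing to the calls.

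**Figure D3:**
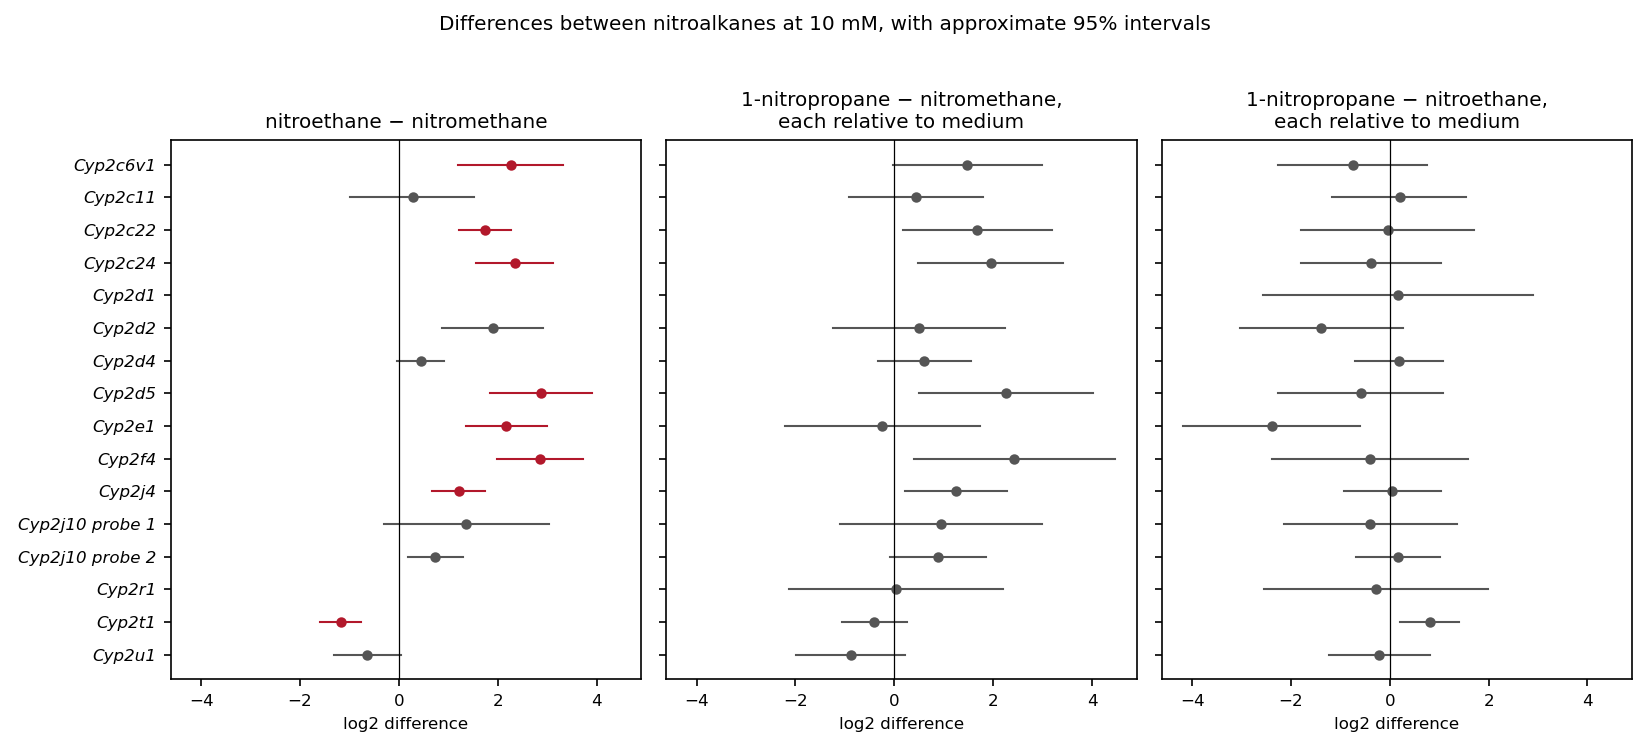
Differences between the nitroalkanes at 10 mM in log2 change (x axis), with approximate 95% intervals, for the Cyp2 probes tested (y axis). The intervals of NE against NM leave out 0 for Cyp2c22, Cyp2f4 and Cyp2t1, while those of 1NP are wider.

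At 3 mM NE and NM differed in 0 of 15 (0.0179% of all probes; 1 at an unadjusted p under 0.05 in edgeR, 1 by DESeq2) and at 1 mM in 0 of 15 (0% of all probes; 0 and 0). The 12 comparisons with 1NP called 0 Cyp2 probes and 0% of all probes by edgeR. At 1 mM they had 0 to 1 at an unadjusted p under 0.05 and 0 by DESeq2, at 3 mM 0 to 1 and 0, and at 10 mM 2 to 6 and 0 to 1. The intervals at 10 mM were wide. Relative to medium, 1NP minus NM was 2.43 for Cyp2f4 (0.40 to 4.47), 1.95 for Cyp2c24 (0.48 to 3.41) and 1.68 for Cyp2c22 (0.17 to 3.19), and 1NP minus NE was -0.04 for Cyp2c22 (-1.80 to 1.71), 0.81 for Cyp2t1 (0.21 to 1.41) and -2.39 for Cyp2e1 (-4.18 to -0.60). These data do not show that 1NP acted like either compound.

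Without the 6 libraries that stood apart, 1NP and NE at 10 mM differed relative to medium in Cyp2f4 (-2.28 ± 0.48, adjusted p = 0.00283), Cyp2e1 (-3.57 ± 0.83, adjusted p = 0.00595), Cyp2t1 (1.05 ± 0.26, adjusted p = 0.00877) and Cyp2j4 (-0.79 ± 0.25, adjusted p = 0.0363), with 15.3% of all probes called. Relative to DMSO the same 4 genes passed, with Cyp2c22 (-2.31) and Cyp2c24 (-1.41) added and 36.3% of all probes called. 1NP and NM gave no such call without these libraries: Cyp2f4 differed by 0.32 relative to medium (adjusted p = 0.916).

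**Figure D4:**
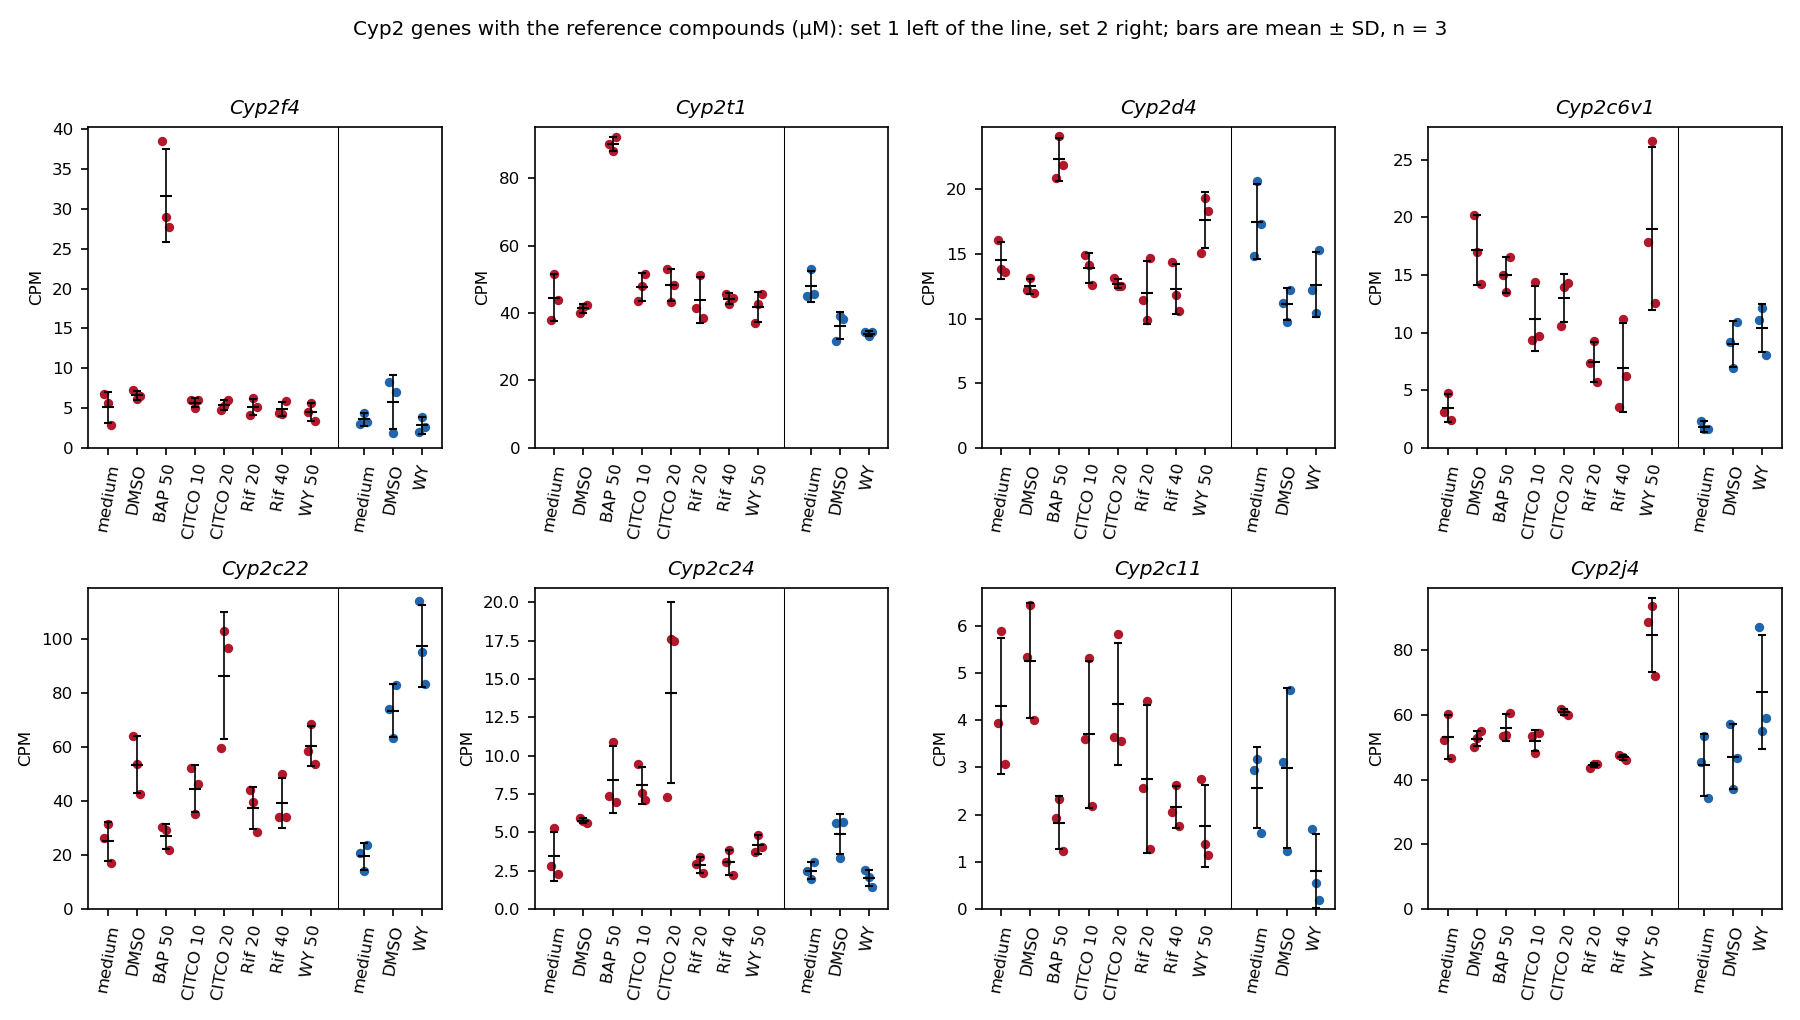
Level (CPM, linear axis from 0) of 8 Cyp2 genes in each library (points) of the controls and reference compounds, with bars for the mean ± SD (n = 3) and set 2 to the right of the line. Cyp2f4 and Cyp2t1 are highest with benzo[a]pyrene, Cyp2j4 of set 1 with WY-14643, and Cyp2c6v1 is low in medium of both sets.

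Benzo[a]pyrene, an activator of AhR, raised Cyp2f4 and Cyp2t1 together. Cyp2f4 measured 38.5, 29.0 and 27.8 CPM, above every control library, a rise of 2.20 ± 0.24 against DMSO (4.59-fold, adjusted p = 5.63e-08) and 2.63 ± 0.24 against medium (adjusted p = 1.91e-09). Cyp2t1 measured 90.2, 88.1 and 92.2 CPM and rose by 1.06 ± 0.12 (2.08-fold, adjusted p = 1.68e-07) and 1.00 ± 0.12 (adjusted p = 2.26e-07). Cyp2d4 rose from 12.5 ± 0.59 CPM in DMSO and 14.5 ± 1.42 CPM in medium to 22.3 ± 1.65 CPM (SD), by 0.77 ± 0.16 and 0.60 ± 0.16 on the log2 scale. All 6 of these calls passed in each of 13 alternatives.

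Cyp2c11, the male-typical enzyme, fell with benzo[a]pyrene to 1.93, 2.33 and 1.23 CPM from 5.33, 6.45 and 4.01 CPM in DMSO (-1.58 ± 0.41, adjusted p = 0.012) and also against medium (-1.24, adjusted p = 0.0346). These calls were lost without benzo[a]pyrene replicate 3, among other libraries, at values from -1.80 to -0.95. Cyp2c22 was lower than DMSO at 30.3, 29.1 and 21.7 CPM (-1.04 ± 0.26, adjusted p = 0.015) and at 0.10 against medium, whose libraries it overlapped. The call of Cyp2c22 was lost without benzo[a]pyrene replicate 3 or DMSO replicate 1. Benzo[a]pyrene called 5 of 16 Cyp2 probes against DMSO, 3 higher and 2 lower (9.17% of all probes), and 8 against medium, 7 higher and 1 lower (19.7%). Its cholangiocyte markers summed to 370 to 425 CPM, below both controls, and their part was not tested. NE at 10 mM and benzo[a]pyrene share their control libraries: each raised Cyp2f4, while Cyp2t1 fell with NE and rose with benzo[a]pyrene, and Cyp2c22 rose with NE.

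Cyp2c24 was higher with CITCO, an activator of human CAR, whose 20 µM libraries shared plate row G with NM and NE at 3 mM. At 20 µM Cyp2c24 measured 7.28, 17.6 and 17.5 CPM, a rise of 1.27 ± 0.30 against DMSO (adjusted p = 0.03) and 2.06 ± 0.31 against medium (adjusted p = 2e-05). The call against DMSO was lost without CITCO replicate 2 or 3 or any 1 DMSO library (1.07 to 1.59 over the alternatives). At 10 µM Cyp2c24 measured 9.44, 7.58 and 7.13 CPM and rose against medium (1.25 ± 0.32, adjusted p = 0.0276), a call lost without CITCO replicate 1 or 2 or medium replicate 1 or 3. Cyp2c22 at 20 µM was at 59.7, 103 and 96.9 CPM (1.82 ± 0.26 against medium, adjusted p = 7.76e-05; 0.67 against DMSO, adjusted p = 0.312). CITCO called 0 of 16 at 10 µM and 1 at 20 µM against DMSO (0.149 and 0.843% of all probes; the 0 stood beside 2 at an unadjusted p under 0.05 in edgeR and 0 by DESeq2), and 3 and 4 against medium (2.58 and 14.7%), all higher, with Cyp2d1 and Cyp2c6v1 among them at both doses.

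Rifampin called only Cyp2c6v1, as lower than DMSO at 20 µM (-1.25 ± 0.30, adjusted p = 0.0203; 2.87% of all probes) and 40 µM (-1.35 ± 0.30, adjusted p = 0.0163; 1.69%). Both calls were lost without rifampin replicate 1 or 3 or DMSO replicate 1 or 2. Against medium it called 0 at both (0.273 and 3.31% of all probes), with 3 and 4 at an unadjusted p under 0.05 in edgeR and 0 and 1 by DESeq2.

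WY-14643, an activator of PPARα, raised Cyp2j4 in set 1 to 88.7, 93.8 and 72.0 CPM from 50.2, 52.9 and 54.9 CPM in DMSO and 52.4, 60.3 and 46.8 CPM in medium, without overlap (0.57 ± 0.10, adjusted p = 0.00051, and 0.60 ± 0.10, adjusted p = 0.000197). In set 2 Cyp2j4 was at 87.3, 55.1 and 59.0 CPM, which rose against medium (0.68 ± 0.19, adjusted p = 0.0196; lost without medium or WY-14643 replicate 4) and was at 0.49 ± 0.19 against DMSO (adjusted p = 0.542). Cyp2c11 fell in set 1 to 2.75, 1.37 and 1.14 CPM (-1.69 ± 0.41 against DMSO, adjusted p = 0.0136; lost without DMSO replicate 2 or WY-14643 replicate 2), and was at -1.80 ± 0.60 in set 2 (adjusted p = 0.341).

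Cyp2c22, Cyp2c6v1 and Cyp2d1 were higher with WY-14643 than in medium in both sets, and against DMSO none of these genes passed. WY-14643 called 2 of 16 against DMSO and 4 against medium in set 1 (4.88 and 5.80% of all probes). In set 2 it called 0 of 15 and 5 (0.901 and 16.9%), the 0 beside 6 at an unadjusted p under 0.05 in edgeR and 0 by DESeq2. The fifth in set 2 was Cyp2t1, at -0.42 ± 0.14, a call lost without any 1 WY-14643 library. A test of the WY-14643 minus DMSO difference between sets called 0 of 15 (0.00855% of all probes; 0 at an unadjusted p under 0.05, 0 by DESeq2).

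The electron donors and heme-supply genes on which P450 enzymes depend were followed as a list of 14 measured probes. Against medium NE at 10 mM raised 7 (Por, Cyb5a, Cyb5b, Alas1, Fech, Hmox1 and Pgrmc1) and lowered 2 (Alad and Urod), where 34.0% of all probes were called. The median change of the list was 0.30. Por, which passes electrons to all microsomal P450 enzymes, went from a mean of 83.9 to 168 CPM (1.01 ± 0.12 against medium; 0.33 ± 0.12 against DMSO, adjusted p = 0.0396). NM at 10 mM lowered 5 against DMSO (7.19% of all probes called), among them Por (-0.70 ± 0.11) and Alas1, the first enzyme of heme synthesis (-0.91 ± 0.24). Against medium these were at -0.02 and -0.75 and did not pass. NE was higher than NM at 10 mM for 6 of the 14 (11.7% of all probes called), with Por at 1.04 ± 0.18.

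Transcription factors known to act on P450 genes were a second list, of 24 tested probes for NE. NE at 10 mM raised 10 against medium and lowered none, a share near the 34.0% of all probes called, with a list median of 0.34. Against DMSO it raised 6 and lowered 1, a share close to the 28.9% of all probes called there. The gene of PXR, Nr1i2, went from 56.9 CPM in medium and 103 CPM in DMSO to 306 CPM (2.40 ± 0.17 and 1.49 ± 0.17). Ppara rose by 2.00 ± 0.19 and 1.07 ± 0.18, and Ahr by 0.51 ± 0.14 against medium, with 0.37 against DMSO (adjusted p = 0.0542). These genes are named from a list most of which was not called, and a link between them and the Cyp2 values was not tested. The panel held 7 Cyp2b and Cyp3a probes, of which 4 were tested. Under NE at 10 mM against medium Cyp2b1, Cyp2b2 and Cyp2b3 were higher and Cyp3a9 lower, where 8 of the 16 other Cyp2 probes were higher and 1 lower. The directions of these 4 against DMSO are not given here.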

How the data were processed

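RNA of 105 libraries had been profiled with TempO-Seq, in which pairs of detector oligonucleotides are joined on each target RNA and sequenced. The authors deposited raw counts per detector probe with no normalization. The submitters' processing notes list DESeq2 1.28.1, R 3.5.3, Bowtie and FastQC but not what each did. A version of Bowtie and a genome build were not found in these notes. The labels name a human panel, but the symbols are those of rat genes, and all 25 Cyp2 genes studied were found in the RefSeq table. A formaldehyde control was not analysed here.

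Counts were tested with edgeR 4.0.16 in R 4.3.3 (filterByExpr with a minimum count of 10 and total of 15, TMM scaling, robust quasi-likelihood F test), and p-values were adjusted by Benjamini-Hochberg over all probes, with a threshold of 0.05. Each nitroalkane was fitted with 1 control of its set, the reference compounds of a set with both controls. The trend uses the rank of the concentration and no control, and for each nitroalkane concentration rose with plate row. Differences are log2 values with approximate standard errors, and 95% intervals use them with the normal quantile. The code was tested on simulated data. Alternatives were DESeq2 1.42.0, RLE scaling, other filters, other samples in the fit, a replicate block and leaving out libraries.

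The members, gene lists and marker lists were chosen with earlier results of these data known. Full values were given where a group mean reached 10 CPM and the gene passed for a nitroalkane at 1 mM or above against medium, for a reference compound against both controls, or between nitroalkanes, and 7 Cyp2 genes met this. Values of Cyp2c11, Cyp2d1, Cyp2d2, Cyp2d5, Cyp2e1, Cyp2j10 and Cyp2u1 are given outside this rule, chosen after they were seen. Of 25 pairs of groups, 0 had every correlation between same-numbered samples over 0.1, so the number was not used as a block in the main fits. Single correlations reached 0.35 (benzo[a]pyrene and DMSO, with 0.22 and 0.0889 for the other numbers). The check therefore does not show that same-numbered samples varied independently. With 3 libraries a group, an exact permutation test cannot reach 0.05, and none is given. CPM values carry counting error at low counts and depend on the probe. Probes of near-identical genes can share reads.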

Additional observations from a re-analysis of the deposited data

Results flagged for a closer look

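NE and NM differed from each other at 10 mM, by a direct test of the difference between the compounds (edgeR's quasi-likelihood test, adjusted p under 0.05), in 8 Cyp2 genes. The log2 difference, NE minus NM, was 2.87 for Cyp2d5, 2.85 for Cyp2f4, 2.35 for Cyp2c24, 2.26 for Cyp2c6v1, 2.17 for Cyp2e1, 1.74 for Cyp2c22 and 1.21 for Cyp2j4, and it was -1.18 for Cyp2t1. Cyp2c22 and Cyp2f4 passed in all 13 alternatives. Of 13, Cyp2c6v1 and Cyp2j4 each lost their call in 5, Cyp2e1 in 4, Cyp2t1 in 3, and Cyp2d5 and Cyp2c24 in 1 each.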

How the results depend on the processing

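The 98 single Cyp2 results that passed were computed again under 9 to 14 alternatives each, 1263 values in all. Results of nitroalkanes below 3 mM against DMSO were not recomputed singly. Of these values 1048 stayed past the threshold, 215 fell short of it with the same direction, and 0 reversed. The alternatives shared most of their libraries with the main fits, so the lack of reversals does not measure how reliable the results are. The larger moves in counts of Cyp2 probes called are listed below, and the cause was not tested. Smaller moves are left out and went both ways. Keeping probes by 1 CPM in 3 of all libraries gave 11 in place of 9 for NE at 10 mM against medium and 9 in place of 7 against DMSO. It gave 11 in place of 8 for the NE trend and 6 in place of 7 for NE at 3 mM against medium. Without the libraries that stood apart, NE against NM at 10 mM gave 11 in place of 8.

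Using only the libraries compared, fewer in each fit, gave 0 for NM at 3 mM against DMSO and against medium, 4 for NE at 3 mM, 2 for NM at 10 mM and 0 for 1NP at 10 mM against DMSO, 0 for 1NP at 10 mM against medium, 0 for CITCO at 20 µM, 5 for rifampin at 20 µM and 2 at 40 µM against DMSO, 1 for rifampin at 20 µM against medium and 5 for medium against DMSO in set 1. Fitting a whole set together gave 0 for NM at 3 mM, CITCO at 20 µM and WY-14643 of set 1 against DMSO, 2 for 1NP at 3 mM and 1 for CITCO at 10 µM against medium, 3 for WY-14643 of set 2 against medium, 2 for medium against DMSO in set 2 and 13 for NE against NM at 10 mM. With no filter the counts were 0 for NM at 3 mM and 1NP at 10 mM against DMSO, 3 and 4 for 1NP at 3 and 10 mM against medium, 2 for CITCO at 20 µM, 5 and 6 for rifampin at 20 and 40 µM against DMSO and 2 and 2 against medium, 5 for medium against DMSO in set 1 and 1 for 1NP against NE at 10 mM relative to DMSO. DESeq2 gave 2 for 1NP at 3 mM and 1 for NM at 10 mM against medium, 3 and 3 for rifampin at 20 and 40 µM against DMSO, 1 for rifampin at 40 µM against medium, 2 for the 1NP trend and 1 for 1NP against NE at 10 mM relative to DMSO.

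Without the 6 libraries that stood apart the counts were 4 for NE at 3 mM and 2 for 1NP at 10 mM against DMSO, 3 and 0 for 1NP at 3 and 10 mM against medium, 1 for the NM trend, 0 for the 1NP trend, and 4 and 6 for 1NP against NE at 10 mM relative to medium and DMSO. With plate column 3 of 1NP left out, an alternative chosen after seeing the data, they were 2 for 1NP at 10 mM against DMSO, 2 and 1 at 3 and 10 mM against medium and 0 for the trend. With the replicate number as a block, the counts were 2 and 3 for rifampin at 20 and 40 µM against DMSO and 5 for NE against NM at 10 mM, where Cyp2t1, Cyp2e1 and Cyp2j4 no longer passed. Correlations between same-numbered samples ran from -0.354 to 0.35. 1NP shares no numbers with its controls, so no block was fitted there.

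Leaving out 1 library at a time gave, against DMSO, 0 to 1 for NM at 3 mM, 3 to 4 for NM at 10 mM, 1 to 2 for NE at 3 mM, 3 to 6 for NE at 10 mM, 0 to 2 for 1NP at 10 mM, 4 to 6 for benzo[a]pyrene, 0 to 1 for CITCO at 20 µM, 0 to 1 and 0 to 2 for rifampin at 20 and 40 µM, 1 to 2 for WY-14643 of set 1, and 2 to 5 for medium in each set. Against medium it gave 2 to 4 for NM at 3 mM, 3 to 6 and 8 to 10 for NE at 3 and 10 mM, 0 to 2 and 0 to 6 for 1NP at 3 and 10 mM, 7 to 8 for benzo[a]pyrene, 1 to 3 and 3 to 5 for CITCO at 10 and 20 µM, 0 to 1 for rifampin at 40 µM, and 3 to 5 and 4 to 6 for WY-14643 of sets 1 and 2. It gave 3 to 9 for NE against NM at 10 mM, and 0 to 7 and 0 to 3 for 1NP against NE at 10 mM relative to DMSO and medium. For the trends all libraries of 1 replicate number were left out at a time, which gave 0 to 1, 5 to 8 and 0 to 3 for NM, NE and 1NP. Trends were not run with only 2 groups or a whole set. Depth limits the genes near 1 CPM, where single counts move the value.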
